A study of Mus musculus with 6 samples.

Results

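CircRNAs of genes for cell adhesion and axon guidance were followed in the striatum of mice that lack HuD. CircRNAs are rings that form when the end of an exon is joined to a splice site upstream of it in the same pre-mRNA, and the join is called the back-splice junction. HuD, encoded by Elavl4, is a neuronal RNA-binding protein that attaches to AU- and U-rich stretches of RNA. The members were found by the first letters of the host gene symbol (Nrxn, Nlgn, Cdh, Pcdh, Cntn, Ctnn, Ptpr, Dlg, Shank, Sema, Plxn, Robo, Slit, Eph, Ntrk, Ncam, Dcc, Dscam, Igsf, Magi2 and related prefixes). They were sought among the circRNAs that the authors' deposited tables list as higher or lower in HuD KO and among those the study lists as bound by HuD. This gave 90 circRNAs of 68 host genes, out of 14236 circRNA probes on the array, of which 3056 carry a name in one of these lists. Of the 90, 32 are listed higher, 40 are listed lower, and 20 are HuD-bound. The HuD-bound members comprise 18 that are in neither table and 2 that are also listed higher, whereas 0 are also listed lower.

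The arrays compared striatal RNA from 3 knockout mice (HuD KO, Elavl4-/-) with that of 3 littermates (WT), all adult males of the C57BL6 strain, with 1 array per mouse. Total RNA had been treated with RNase R, which digests linear RNA, and labelled with Cy3 by random priming. Bulk striatum was measured, so fewer cells of a type and less RNA per cell cannot be told apart. HuD binding was measured by the study in other mice, by immunoprecipitation of a myc-tagged HuD transgene driven by the Camk2a promoter. Levels below are log2 corrected intensities from which the 75th percentile over an array's circRNA probes was subtracted, and a change is the mean of the HuD KO levels minus the mean of the WT levels.

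The 72 listed members had been selected by a fold change of 2 and a p-value on these same arrays. Their changes are therefore given as a description with no test. The 20 HuD-bound members were selected by binding, without reference to the knockout, and are counted as a whole. Adjusted p-values are given only for the 18 of them outside the tables, a set from which the listing had removed the 2 with the largest changes. The genotype contrast was broad: of 13445 circRNA probes tested with limma, 63.4% passed a Benjamini-Hochberg adjusted p of 0.05, with 26.2% of all tested probes higher and 37.2% lower in HuD KO. In 69.5% of the tested probes, the levels of the genotypes did not overlap. No scan held both genotypes (HuD KO replicates 1 and 2 shared a scan, HuD KO replicate 3 had its own, and the WT arrays shared another), so scan and genotype cannot be told apart. No named circRNA has Elavl4 as its host, so the deleted gene itself was not checked here.

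At the synapse, neurexins on the presynaptic side bind neuroligins on the postsynaptic side, and scaffold proteins of the Dlg, Dlgap and Shank families hold receptors beneath the postsynaptic membrane. Cadherins join like cells through catenins, and contactins and NCAMs are immunoglobulin-type adhesion molecules of axons. Semaphorins, Slits and ephrins are cues that steer growing axons, and plexins, Robo receptors and Eph receptors read them. Many of these genes are very long, and their pre-mRNAs give rise to several circRNAs in brain.

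The circRNAs were told apart on the array by probes of 60 bases, laid across the back-splice junction in exonic circRNAs. Among named exonic circRNAs that share one end, the probes of all 55 pairs with a common donor site had a stretch in common at the 5′ side, and the probes of 89 of 90 pairs with a common acceptor site had one at the 3′ side. The sequences of exonic circRNAs therefore read 5′ to 3′ in the sense of the circRNA, with the donor exon before the junction and the acceptor exon after it. Probes of intronic, antisense and sense overlapping circRNAs were not checked in this way. The probes of Dlgap3 and Pcdh11x are shown because each pair shares its donor site; capitals mark the stretch common to the pair.

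mmu_circRNA_37659: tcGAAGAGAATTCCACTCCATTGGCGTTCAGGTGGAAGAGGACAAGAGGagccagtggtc
mmu_circRNA_37660: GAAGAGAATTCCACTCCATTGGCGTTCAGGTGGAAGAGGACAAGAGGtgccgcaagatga
mmu_circRNA_45726: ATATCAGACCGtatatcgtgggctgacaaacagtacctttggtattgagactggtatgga
mmu_circRNA_45727: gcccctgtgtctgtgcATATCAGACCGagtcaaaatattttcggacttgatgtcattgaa

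The Dlgap3 probes share 47 of 60 bases, whereas the Pcdh11x probes share 11. Between all other members of one host gene, the longest common stretch of the probes was 8 bases.

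The probes of the Ptprm pair are shown because its members differed in direction.

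mmu_circRNA_30802: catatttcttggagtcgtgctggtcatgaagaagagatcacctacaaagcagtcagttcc
mmu_circRNA_30803: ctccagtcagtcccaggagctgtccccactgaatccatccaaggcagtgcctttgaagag

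The direction of the listed members was uniform in some families and mixed in others. The 3 listed circRNAs of neuroligin-1 and the 5 of contactins were all higher in HuD KO, and the 7 listed Eph receptor and 5 listed semaphorin circRNAs were all lower. Cadherins, receptor tyrosine phosphatases, scaffold genes and neuroligins as a whole had listed members in both directions. The tables themselves hold 1140 circRNAs listed higher and 1348 listed lower. Every one of the 72 listed members kept its sign under all 6 other ways of scaling the arrays, which had themselves selected the members. The sizes moved: 66 were past a 2-fold change in the listed direction here, and 41 with arrays scaled on the circRNA control probes. The median change was 1.24 for the members listed higher, with a range from 0.93 to 2.07, and -1.78 for those listed lower, with a range from -5.81 to -0.95. Over all circRNAs in the deposited tables, the medians were 1.33 and -1.99.

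**Figure D1:**
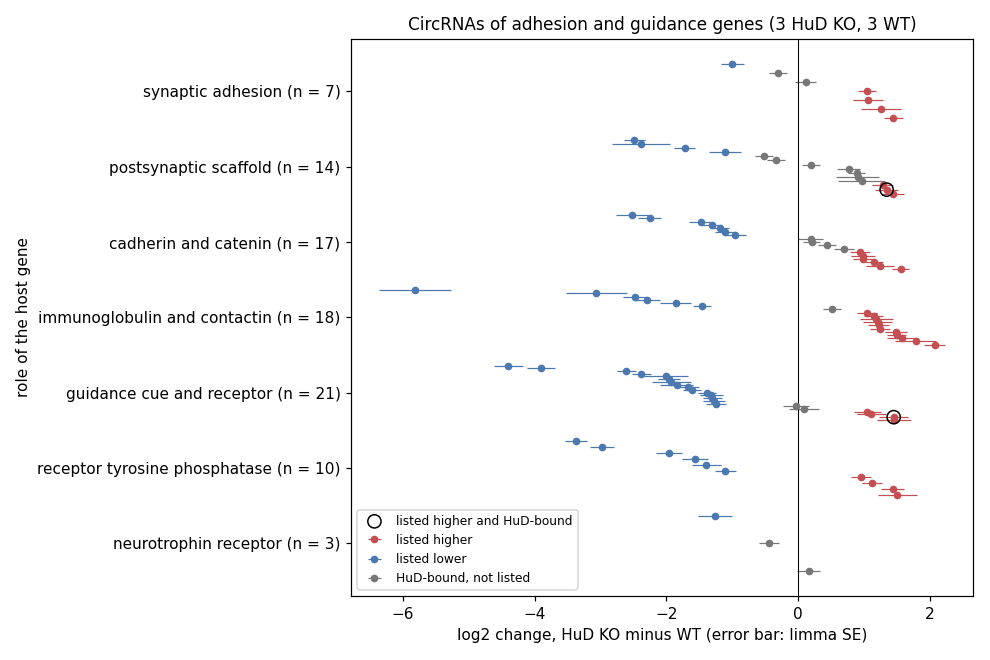
Change of each of the 90 circRNAs (log2, HuD KO minus WT; points are limma estimates from 3 arrays per genotype and bars are their SE), grouped by the role of the host gene and coloured by how the circRNA entered. Synaptic adhesion circRNAs lie mostly to the right of 0 (5 of 7, of which 3 are from Nlgn1), guidance circRNAs mostly to the left (16 of 21), and the rings mark the 2 HuD-bound circRNAs that are also listed higher. The 72 listed points were selected by direction on these same arrays, from tables that hold 1140 higher and 1348 lower. The counts include HuD-bound circRNAs that were not called, such as those of Nlgn3 (0.11) and Sema4d (-0.03).

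Among the synaptic adhesion genes, Nlgn1, which encodes neuroligin-1 of excitatory synapses, had 3 members, all listed higher. Of these, mmu_circRNA_35168 (chromosome 3, 26133241 to 26134052, minus strand, exonic; positions here and below are as deposited) had levels of 3.79, 3.95 and 3.97 in HuD KO and 2.44, 2.59 and 2.34 in WT, a change of 1.44. It is nested in the span of mmu_circRNA_35162, which reaches over 272170 bp and had a change of 1.05 (SE 0.14). mmu_circRNA_35155 lies apart from both and had a change of 1.26 with a larger SE of 0.30, and its HuD KO levels spread from -3.49 to -2.31. This dim probe gave changes from 0.09 (normexp and 75th percentile) to 2.21 (quantile normalization) under other scalings. The listed circRNA of Nrxn3, a neurexin gene (mmu_circRNA_25590) was higher by 1.07, whereas that of X-linked Nlgn3 (mmu_circRNA_45633) was lower, with a change of -1.0. Its HuD KO levels were 1.30, 0.95 and 1.57 and its WT levels 2.29, 2.26 and 2.28.

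**Figure D2:**
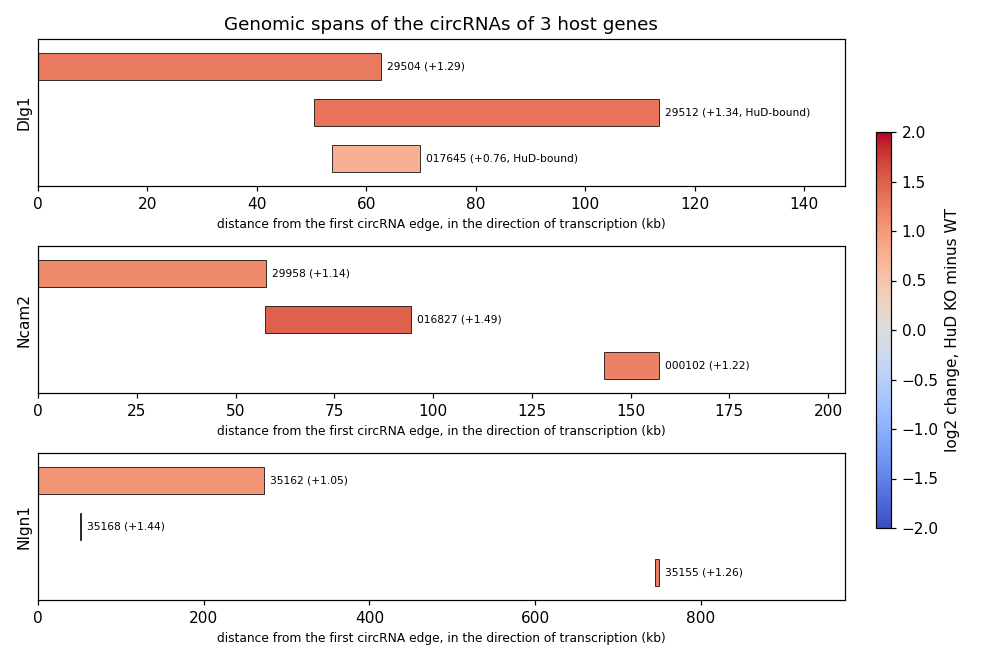
Genomic spans of the circRNAs of Dlg1, Ncam2 and Nlgn1, drawn from the first circRNA edge in the direction of transcription (x axis in kb) and coloured by change (log2, HuD KO minus WT; number, change and HuD binding beside each bar). Bars of 1 host gene have similar colours whether they overlap or not, and the palest, at 0.76, is the HuD-bound circRNA of Dlg1 that is not listed. All other bars were listed higher on these same arrays, so their likeness was largely set by the selection.

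In the postsynaptic scaffold, Dlg1 (SAP97) had 3 members in overlapping spans on chromosome 16, and 2 of them are HuD-bound. mmu_circRNA_29512 (31793503 to 31856491), bound and listed higher, had levels of 1.58, 1.77 and 1.98 in HuD KO and 0.49, 0.63 and 0.19 in WT, a change of 1.34. mmu_circRNA_29504, listed higher and not on the bound list, had a change of 1.29. mmu_circRNA_017645, bound and not listed, is nested in the span of mmu_circRNA_29512 and rose by 0.76 (SE 0.18, limma adjusted p = 0.0065).

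Shank genes, which encode scaffolds that link receptor complexes to actin, were split. The circRNA of Shank1 (mmu_circRNA_41346) was higher by 1.43, and both circRNAs of Shank2 were lower, at -1.11 and -1.72. Lower members also came from Dlg5 (mmu_circRNA_27231, -2.49 with an SE of 0.16) and from an intron of Magi2 (mmu_circRNA_38151, -2.38 with an SE of 0.44). Their sizes depended on the values used. In the authors' normalized log2 values the changes were -1.88 and -1.43, and the smallest under the alternatives were -1.42 and -0.90. The large SE for Magi2 goes with levels of -3.89, -4.02 and -2.19 on the HuD KO arrays, against -0.96, -0.93 and -1.05 in WT. HuD KO replicate 3 was the high one.

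Contactin circRNAs were higher wherever they were listed. Contactin genes encode anchored adhesion proteins of axons, and Cntnap2 encodes the Caspr2 protein that partners contactin-2 near the node of Ranvier. The listed circRNAs of Cntn1, Cntn3, Cntn5 and Cntn6 were higher by 1.19 to 1.78. mmu_circRNA_40213 of Cntnap2 (chromosome 6, a span of 249528 bp) had levels of -0.11, -0.0028 and -0.33 in HuD KO and -2.08, -2.18 and -2.40 in WT. Its change of 2.07 (SE 0.16) was the highest of all 90 members in the values used here. It was 2.03 in the authors' log2 values, and the smallest under the alternatives was 1.17, so its size depended on the values used. The overlapping mmu_circRNA_40211 of the same gene had a change of 1.05. All 3 members of Ncam2 were higher, at 1.14, 1.49 and 1.22. The circRNA from an intron of Ncam1 (mmu_circRNA_44130) was lower at -1.86.

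The same role group held the lowest value of all. mmu_circRNA_37852 of Igsf21, an immunoglobulin-family gene for a synaptic adhesion protein, had levels of 5.62, 5.70 and 5.46 in WT and -1.01, -0.88 and 1.25 in HuD KO. The change was -5.81, with an SE of 0.54. HuD KO replicates 1 and 2 lay close together and replicate 3 was clearly higher, yet below every WT array. Without replicate 3 the change was -6.54. Igsf11 (-2.48) and Igsf5 (-2.30) members were lower too, as was that of Dscaml1 (-1.46). The circRNA antisense to Cntnap5c (mmu_circRNA_30683) was lower too, but well above background on only 2 of 3 HuD KO arrays, with a change of -3.06 here and -1.73 in the authors' log2 values.

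Among the guidance genes, lower circRNAs prevailed with 15 listed lower and 4 listed higher, in tables that hold 1348 and 1140. Semaphorins are secreted or membrane-bound cues that mostly repel axons. mmu_circRNA_38137 of Sema3c (chromosome 5, 17678311 to 17682083, exonic) had levels of 5.19, 5.37 and 4.90 in WT and 0.56, 0.52 and 1.17 in HuD KO, a change of -4.40 with an SE of 0.22. mmu_circRNA_000895, from an intron of Sema3f (chromosome 9, 107691129 to 107691448), had levels of 1.99, 1.71 and 1.27 in WT and -2.52, -2.16 and -2.06 in HuD KO, a change of -3.90. Every HuD KO array was over 3 log2 units below every WT array in both. Sema5a (-2.38), Sema5b (-1.96) and Sema4b (-1.67) followed, at -1.66, -1.73 and -1.19 in the authors' log2 values. Among members above background on every array, the probes of the 3 lowest are shown, and none holds ATTTA or TTTTT.

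mmu_circRNA_37852: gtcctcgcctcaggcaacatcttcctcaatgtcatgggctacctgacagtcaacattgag
mmu_circRNA_38137: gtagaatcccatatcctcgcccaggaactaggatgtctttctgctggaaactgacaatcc
mmu_circRNA_000895: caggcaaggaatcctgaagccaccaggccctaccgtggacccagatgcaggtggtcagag

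The Eph receptors, tyrosine kinases for membrane-bound ephrins, had 7 listed members from 5 genes, all lower, from -2.61 in Epha2 (mmu_circRNA_005186) to -1.25 in Epha4 (mmu_circRNA_20370). In the authors' normalized log2 values the Epha2 change was -1.32, and the extremes were both in Ephb1, at -2.14 (mmu_circRNA_44982) and -1.17 (mmu_circRNA_44984). In Ephb1 the levels of mmu_circRNA_44982 were -0.09, 0.16 and 1.13 in HuD KO and 2.34, 2.41 and 2.24 in WT. HuD KO replicate 3 was again nearest to WT. The netrin receptor gene Dcc gave a lower circRNA (-1.61), and so did Plxna1 (-1.32) and Plxnd1 (-1.28).

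The exceptions were Plxna2 (1.05), Slit1 (1.11) and Robo2. Robo2 encodes a receptor for Slit proteins, and its members did not overlap in the genome. mmu_circRNA_29927 (chromosome 16, 73933586 to 73971220), HuD-bound and listed higher, had levels of 1.08, 1.26 and 0.54 in HuD KO and -0.29, -0.47 and -0.71 in WT, a change of 1.45. mmu_circRNA_012252 also had a change of 1.45. The probes of the HuD-bound circRNAs of Dlg1 and Robo2 that were listed higher are given here, and neither holds ATTTA or TTTTT.

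mmu_circRNA_29512: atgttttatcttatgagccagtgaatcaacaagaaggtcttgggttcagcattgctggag
mmu_circRNA_29927: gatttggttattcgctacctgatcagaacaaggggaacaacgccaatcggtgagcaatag

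Receptor tyrosine phosphatases, several of which act as synaptic adhesion molecules, were divided with 4 listed higher and 6 listed lower. The higher ones came from Ptprn (1.50), Ptprn2 (1.44), Ptprd (1.12) and Ptprm, and the lower ones from Ptprq, Ptprm, Ptprt (-1.57), Ptprg (-1.39) and Ptprs (-1.11). Both Ptprq circRNAs were well above background on only 2 of 3 HuD KO arrays, and the size of their change depended on the values used, at -3.37 and -2.98 here and -1.90 and -1.56 in the authors' log2 values. The members of Cdh2 (1.14), Cdh9 (1.56), Cdh10 (1.24) and Cdh18 (0.99), genes of classical cadherins, were higher, and that of Cdh12 was lower (-1.19). Members of Pcdh9 (-2.25) and Pcdh19 (-1.31), of the catenin gene Ctnnd2 (mmu_circRNA_28341, -1.11) and of the catenin inhibitor gene Ctnnbip1 (-0.95) were lower. For Pcdh9 the change was -1.54 in the authors' log2 values, and the smallest under the alternatives was -1.08.

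In 3 host genes, namely Ptprm, Pcdh11x and Ctnna2, circRNAs were listed in both directions. For Ptprm (chromosome 17, minus strand), mmu_circRNA_30802 had levels of -0.79, -0.89 and -1.16 in HuD KO and -1.83, -1.98 and -1.89 in WT, and mmu_circRNA_30803 had levels of -0.46, -0.57 and 0.07 in HuD KO and 1.54, 1.81 and 1.58 in WT. The changes were 0.96 and -1.96, although the spans (66890923 to 66944329 and 66940482 to 66953177) overlap by 3847 bp.

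Pcdh11x, a protocadherin gene on the X chromosome, gave circRNAs that end at the same donor site at position 120401897 and differ in the acceptor, at 120364785 for mmu_circRNA_45726 and 120399401 for mmu_circRNA_45727. Levels of the longer circRNA were -0.49, 0.02 and -0.23 in HuD KO and -1.30, -1.33 and -1.0 in WT, a change of 0.98. Those of the shorter one were -0.51, -0.44 and 0.06 in HuD KO and 1.15, 1.16 and 1.24 in WT, a change of -1.48. Ctnna2, the gene of the neuronal alpha-catenin, gave intronic circRNAs that did not overlap, with changes of -2.52 (mmu_circRNA_40432) and 0.93 (mmu_circRNA_40433). The size of the Ctnna2 fall depended on the values used. It was -1.81 in the authors' log2 values, and the smallest under the alternatives was -1.26. All circRNAs of these pairs had separate groups on the 6 arrays, as had 69.5% of all tested probes. With arrays scaled on the control probes, the higher circRNA of each pair was close to 0, at 0.17 for Ptprm, 0.20 for Pcdh11x and 0.15 for Ctnna2.

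**Figure D3:**
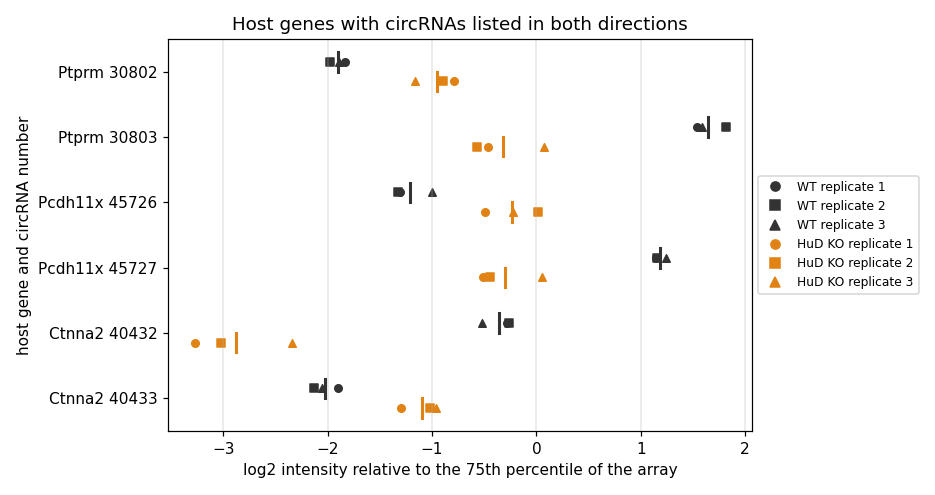
Level on each array (x axis, log2 intensity scaled to each array's 75th percentile; WT in black, HuD KO in orange, vertical ticks are group means of 3 arrays) for the circRNAs of the 3 host genes listed in both directions. In each host gene the HuD KO points lie to the right of WT for 1 circRNA and to the left for the other. The groups do not overlap in any of the 6 circRNAs, which the listing had selected on these same arrays.

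Of the 13 host genes with over 1 listed member, 10 had all of them in one direction. Of these genes, 6 were higher (Cntn6, Cntnap2, Dlg1, Ncam2, Nlgn1 and Robo2) and 4 were lower (Epha4, Ephb1, Ptprq and Shank2). The 6 and the 4 were selected by the listing, so the agreement within a gene is given as a description. No share over other host genes is set beside it here.

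The HuD-bound members address whether binding goes with a change in the knockout. Of all 20, 9 were called higher and 2 lower at a limma adjusted p under 0.05 (45% and 10%), beside 42.6% and 14.0% of all 657 tested HuD-bound circRNAs and 26.2% and 37.2% of all tested probes. The members thus lay near the shares of the bound circRNAs in general. Of the 18 outside the tables, 7 rose (38.9%) and 2 fell (11.1%), 9 did not pass, and the median change was 0.19. Over all 567 tested HuD-bound circRNAs outside the tables, 36.9% were called higher and 12.9% lower, with a median of 0.29. The 18 thus lay near these shares. Taking out the listed ones limits the size of change these 18 can show. The direction hung on the scaling: with arrays scaled on the 14 circRNA control probes, 1 of the 20 was called higher and 10 lower, and the median of the 18 was -0.59 where that of all probes was -0.89. In the main values, the median over all tested probes was -0.11. The signal of these probes was also high, with a median WT level of 0.29 against -1.20 over all tested probes, and its part in the changes was not tested.

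The rises were found in 2 roles and in 1 contactin. In the scaffold group, mmu_circRNA_23603, antisense to Dlg4 (the PSD-95 gene), had levels of 3.03, 2.86 and 2.81 in HuD KO and 2.06, 1.99 and 1.99 in WT. It rose by 0.89 (SE 0.13, limma adjusted p = 0.000809), and the groups were clearly separate; with scaling on the control probes it kept its sign at 0.10 but was not called. Both circRNAs of Dlgap3, a gene for a scaffold protein abundant in the striatum, rose by 0.96 (SE 0.36, limma adjusted p = 0.0466) and 0.90 (SE 0.33, limma adjusted p = 0.0423). Levels of mmu_circRNA_37659 were 0.97, 0.67 and -0.10 in HuD KO and -0.01, -0.20 and -1.14 in WT. Here the groups overlapped, the replicate 3 arrays being the low ones in both genotypes. Without WT replicate 3 the changes were 0.62 and 0.54 (limma adjusted p = 0.14 and 0.0963). Their calls were lost under 10 and 9 of 18 alternatives, and the probes share most of their bases, so these are not independent measurements.

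Among the catenins, which carry cadherin signals into the cell, mmu_circRNA_34004 of Ctnnd1 (p120-catenin) rose from levels of 0.27, 0.42 and 0.63 in WT to 1.12, 1.01 and 1.27 in HuD KO, a change of 0.69 (SE 0.15, limma adjusted p = 0.00515). mmu_circRNA_000043 of Ctnnd2 (delta-catenin) rose by 0.44 (SE 0.14, limma adjusted p = 0.0215), a call lost or reversed under 8 of 18 alternatives. It does not overlap the Ctnnd2 circRNA listed lower. mmu_circRNA_28977 of Cntn1 rose by 0.51 (SE 0.13, limma adjusted p = 0.0107) and is nested in the span of mmu_circRNA_28975, listed higher at 1.49. With scaling on the control probes the changes of Ctnnd1, Ctnnd2, Cntn1 and Dlg1 (mmu_circRNA_017645) turned negative, at -0.09, -0.34, -0.27 and -0.02.

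The falls were in Dlgap1 and Ntrk2. mmu_circRNA_011419 of Dlgap1, a scaffold gene of the same family as Dlgap3, had levels of -0.63, -0.68 and -0.52 in HuD KO and -0.18, -0.09 and -0.02 in WT. It fell by 0.52 (SE 0.13, limma adjusted p = 0.00978). The adjoining mmu_circRNA_30835, which overlaps it by 215 bp, had a change of -0.34 (SE 0.13, limma adjusted p = 0.0566). mmu_circRNA_26419 of Ntrk2, the gene of the BDNF receptor TrkB, fell by 0.45 (SE 0.15, limma adjusted p = 0.0328), a call lost or reversed under 9 of 18 alternatives. Without scaling, both calls were lost and the changes were 0.0004 and 0.07, where the median over all probes was 0.41.

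**Figure D4:**
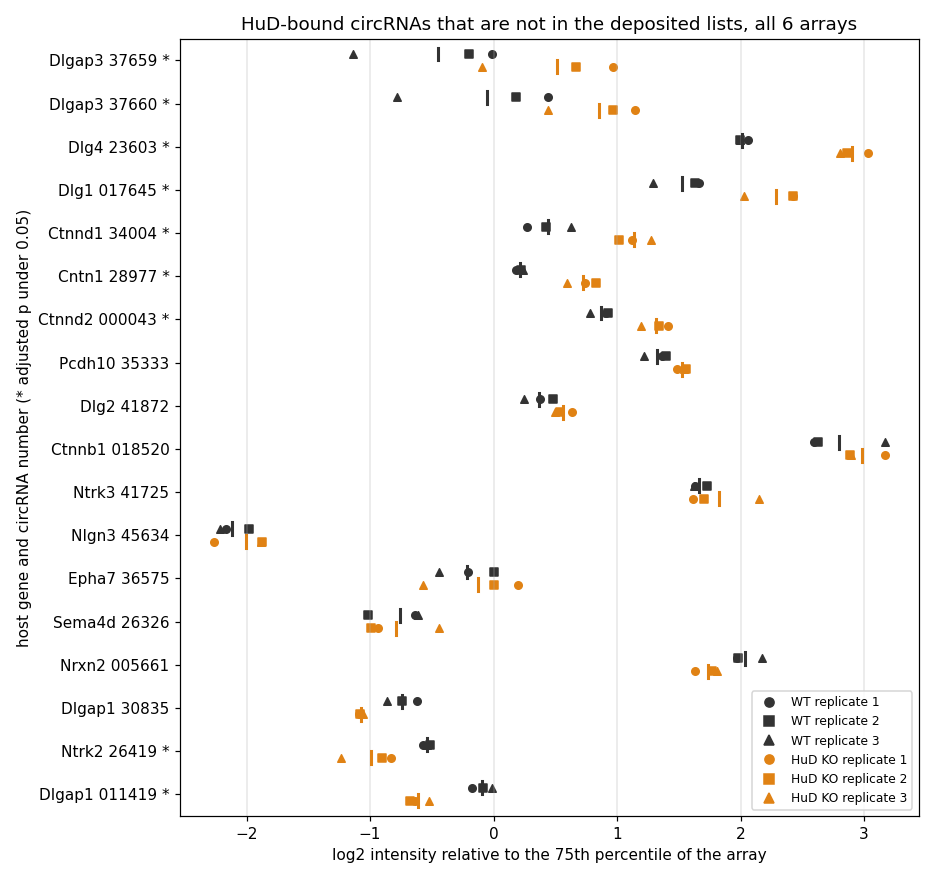
Level on each of the 6 arrays (x axis, log2 intensity scaled to each array's 75th percentile; WT in black, HuD KO in orange, vertical ticks are means of 3 arrays) for the 18 HuD-bound circRNAs outside the deposited tables, in order of change; stars mark a limma adjusted p under 0.05. Changes run from 0.96 at the top to -0.52 at the bottom. The groups are separate in 12 of 18, beside 69.5% of all tested probes.

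The 9 that did not pass were circRNAs of Ctnnb1, Pcdh10, Epha7, Sema4d, Ntrk3, Dlg2, Nlgn3, Nrxn2 and the Dlgap1 circRNA named above. Their changes lay between -0.34 and 0.20. With scaling on the control probes, those of Ctnnb1, Pcdh10, Epha7, Dlg2 and Nlgn3 turned negative and were called lower, at -0.69 to -0.58. Those of Sema4d (-0.82), Nrxn2 (-1.09) and Dlgap1 (mmu_circRNA_30835, -1.12) were called lower too. The Ntrk3 circRNA also turned negative (-0.62) but was not called. Epha7 (mmu_circRNA_36575) had levels of 0.20, -0.0001 and -0.58 in HuD KO and -0.21, 0.004 and -0.44 in WT, a change of 0.09 with an SE of 0.23, and the groups overlapped. Nrxn2 (mmu_circRNA_005661) had levels of 1.63, 1.76 and 1.81 in HuD KO and 1.97, 1.98 and 2.18 in WT, a change of -0.30 (SE 0.14, limma adjusted p = 0.0876). A p above the threshold does not show that these were alike in the genotypes. For Nlgn3 and Ntrk3, the bound circRNAs (0.11 with an SE of 0.16, and 0.16 with an SE of 0.17) were not those listed lower (-1.0 and -1.27).

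The listed members differed in class and span. Of those listed higher, 31 of 32 (96.9%) were exonic. Of those listed lower, 31 of 40 (77.5%) were exonic, 6 intronic, 1 antisense and 2 sense overlapping. Over all circRNAs in the tables the exonic shares were 83.2% and 66.0%. Among exonic members, the genomic distance from start to end had a median of 53.4 kb when listed higher and 10.3 kb when listed lower, and it was over 50 kb in 16 of 31 and 6 of 31. The corresponding medians over all listed exonic circRNAs were 19.4 kb and 9.33 kb, with 17.0% and 6.74% over 50 kb. These are distances in the genome, introns included, and not lengths of the circRNAs.

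**Figure D5:**
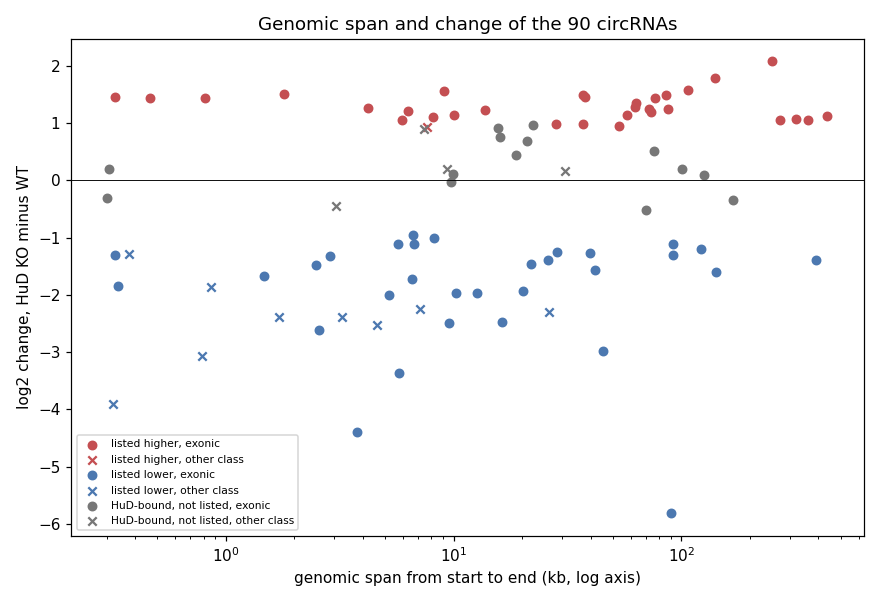
Genomic span (x axis, kb, log scale) and change (y axis, log2, HuD KO minus WT) of the 90 circRNAs; circles are exonic, crosses are other classes, and colours give how each entered. Points listed higher extend to a span of 438084 bp, and most of the exonic points listed lower lie below 50 kb (25 of 31), with the Igsf21 circRNA at -5.81 standing alone.

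An AU-rich and a U-rich motif of the kind HuD binds were searched in the probes. The letters ATTTA occurred in 2 of 90 probes (2.22%) and TTTTT in 0, against 4.16% and 5.14% of the 3056 probes of named circRNAs. Read on the opposite strand, ATTTA matched 2 and TTTTT matched 7 of the 90, beside 107 and 286 of the 3056. Of the 20 HuD-bound members, the probe of the Epha7 circRNA alone (5.0%) held ATTTA, which stands in capitals below. Over all HuD-bound circRNAs the share with ATTTA was 4.86%. The probe covers 60 bases beside the junction and not the whole circRNA, so a missing match says nothing of the rest.

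mmu_circRNA_36575: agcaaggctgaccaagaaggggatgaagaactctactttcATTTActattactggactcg

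The authors' tables also name up to 5 microRNAs with a predicted site for each listed circRNA. Those named for 4 or more of the 72 listed members were miR-1903 with 6, miR-3064-5p with 5, and miR-3085-3p and miR-6946-3p with 4 each. Their mature sequences (RefSeq, GRCm38.p6) are shown with the seed, bases 2 to 8, in capitals.

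mmu-miR-3064-5p: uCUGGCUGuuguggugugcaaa
mmu-miR-3085-3p: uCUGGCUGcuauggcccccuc
mmu-miR-1903: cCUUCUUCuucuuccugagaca
mmu-miR-6946-3p: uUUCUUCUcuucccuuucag

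The seed is the same in miR-3064-5p and miR-3085-3p. One or both of them were named for 6 members (8.33% of the listed members, against 1.57% of all 2488 circRNAs in the tables), namely those of Cntn5, Cntnap4, Ptprn2, Sema4b, Pcdh19 and Ctnnbip1. Of these, 3 were listed higher and 3 lower. For miR-1903 the shares were 8.33% and 8.44%, and for miR-6946-3p they were 5.56% and 4.54%. The microRNAs were picked by their number of members, which favours a higher share among the members, so these shares are a description. These are predictions, and no binding was measured.

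Other genes of adhesion, guidance and synaptic scaffolds that the prefixes leave out were counted from a separate list of 84 hosts, such as Cadm1, Magi1, Opcml, Homer1, Rims1 and Adgrb3. Of these, 27 had named circRNAs, 51 in all, and some hosts such as Rims1, Magi1 and Opcml gave several. The tables, which hold 1140 circRNAs listed higher and 1348 listed lower, list 23 of the 51 higher and 13 lower. Of these 36, selected on the same arrays, 35 were tested and kept their sign under the 6 other scalings. Of the 15 that were HuD-bound and outside the tables, 11 were called higher and 0 lower, beside 36.9% and 12.9% of the 567 tested HuD-bound circRNAs outside the tables, and 4 of the 11 came from the scaffold gene Homer1. However, with scaling on the control probes the counts were 0 and 2. Under the remaining scalings, 8 to 14 were called higher and 0 lower.

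HuD KO replicate 3 often lay nearest to WT. It was the highest of the HuD KO arrays for 28 of the 40 members listed lower (70.0%) and the lowest for 20 of the 32 listed higher (62.5%), beside 72.0% and 68.1% over all listed circRNAs. Without it, the medians were 1.32 and -1.94, and the 18 HuD-bound members again gave 7 higher and 2 lower calls. Of the 29 marker genes for striatal projection neurons, oligodendrocytes, astrocytes and microglia, only Bcl11b (-0.27, limma adjusted p = 0.219) and Slc1a2 (0.70, limma adjusted p = 0.009) had a named circRNA, both HuD-bound. The cell types in the samples could thus not be checked from host gene names.

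At the edge of the listing, in the authors' normalized log2 values, the member nearest to the threshold was mmu_circRNA_007509 of Slit1 among those listed higher (1.01) and mmu_circRNA_30658 of Ptprs among those listed lower (-1.05). Outside the tables, the largest changes in the values used here were the 0.96 and 0.90 of the Dlgap3 circRNAs.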

How the data were processed

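Per the file headers, the deposited intensity of each spot came from Agilent Feature Extraction 11.0.1.1, corrected for background within the array. The authors also deposited tables of circRNAs listed higher and lower, with raw intensities and normalized log2 intensities; how the log2 values were normalized is not given in the sources used here. Those tables also hold fold changes, p-values and FDR, which were not used. The unmapped sample columns numbered 0. Host genes, classes and positions come from the tables or the study's HuD-bound list, of which the copy used here holds 658 circRNAs and may not be complete. The build of the positions is not stated, and all 90 members lay inside their host gene in the GRCm38 gene table.

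The log2 corrected intensity was expressed relative to the 75th percentile of the unflagged circRNA probes of the array, and outlier spots were dropped, which affected 0 members. A probe had to be well above background on each array of 1 genotype or of both. All 90 members were tested, and 87 were above background on all 6 arrays. All 6 arrays entered a limma 3.58.1 fit (R 4.3.3), HuD KO against WT without covariates, with Benjamini-Hochberg adjustment over 13445 probes. A Student test, as in the study's methods, was among the alternatives. Precision is limited by how few arrays there were. The fit was tested on simulated data. The circRNAs of 1 host gene are not reported here. Members, gene lists and tests were chosen with earlier results of these data known. The rule for named circRNAs took every HuD-bound member, the 2 largest changes per direction in each role among circRNAs above background on all 6 arrays, and all circRNAs of hosts listed in both directions or with the most members. Other listed members, such as those of Cdh2 and Plxna2, were named after their values were seen.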

Additional observations from a re-analysis of the deposited data

How the results depend on the processing

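All 72 listed members kept their direction under every alternative in which they were tested, the authors' deposited log2 values included. The members had been listed by direction on these same arrays, so this is a description and no independent check. Their sizes did not hold: across the scalings the median of those listed higher, 1.24, lay between 0.46 (control probes) and 1.76 (no scaling), and that of those listed lower, -1.78, between -2.57 (control probes) and -1.24 (normexp and quantile normalization). Among the 18 HuD-bound members outside the tables, calls moved: 9 passed, against 4 (3 higher, 1 lower) with scan as a random block. A 2-fold change with an unadjusted p of 0.05 gave 0 (0 higher, 0 lower), which the removal of listed circRNAs by such a rule makes likely from the start; over all probes it gave 4557 calls in place of 8519. Calls higher, in place of 7, numbered 0 with scaling on the circRNA control probes and 11 with no scaling. Calls lower, in place of 2, numbered 10 with scaling on the control probes, 4 with the methods' Student test, 0 with median scaling and 0 with no scaling. The median change of 0.19 became -0.59 with scaling on the control probes, 0.39 with median scaling and 0.71 with no scaling, while that of all probes went from -0.11 to -0.89, 0.09 and 0.41. Scaling by 1 value per array shifts all changes alike; apart from this the cause was not tested.

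Of the 18, 10 turned sign with scaling on the control probes and 5 with no scaling, and 1 to 3 under the other scalings. Those called in the main values turned with scaling on the control probes in Ctnnd2 (-0.34), Dlg1 (mmu_circRNA_017645, -0.019), Cntn1 (-0.27) and Ctnnd1 (-0.0904), and with no scaling in Dlgap1 (mmu_circRNA_011419, 0.0004) and Ntrk2 (0.0686). Leaving out 1 array at a time gave 5 to 9 calls among the 18 (4 to 7 higher, 1 to 2 lower), a median of 0.15 to 0.23 and 7084 to 9170 calls over all probes. The lowest count, 5, was seen without HuD KO replicate 2 and without WT replicate 2. Calls higher were 4 without HuD KO replicate 1, HuD KO replicate 2, WT replicate 2 or WT replicate 3, and calls lower were 1 without HuD KO replicate 2, WT replicate 1 or WT replicate 2.

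Deviations of same-numbered arrays from their group means were not related (correlations of -0.01, -0.03 and -0.08), so no pairing by number was seen. With 3 arrays per genotype, this cannot show that the mice were unpaired. In a fit with a replicate block, 8 of the 18 were called (7 higher, 1 lower) and 7987 probes in all. The files hold no mean signal, so normexp was run on the median signal, an alternative chosen after the data were seen.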
